A study of Mus musculus with 12 samples.

Results

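Bupivacaine-injured gastrocnemius was compared with saline-injected gastrocnemius, which sets what the myotoxic local anesthetic adds against the injection itself. The comparison was chosen by the group labels alone and takes 6 of the 12 libraries of the series, 3 injured and 3 saline-injected, over all 15715 genes that passed a filter on low counts. Every mouse was wild-type C57BL/6 and 6 to 7 months of age. The saline group received the vehicle, the injury group received bupivacaine without needling, and 3 naive libraries came from muscle that was not injected. The other 3 libraries, from muscle that was needled after bupivacaine, entered the filter, the fit of the spread and the principal components, and are not compared here. Whole muscle was taken, so each library mixes fibers, blood, nerve, vessels and every cell that entered the tissue. The labels gave no dose, no collection time after injection and no statement that each library came from its own animal, so p-values reflect the spread between the libraries alone, which may be technical.

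Bupivacaine kills muscle fibers while largely sparing the satellite cells, the stem cells of muscle, together with the basement membrane around each fiber. Phagocytes then enter and clear the debris, satellite cells divide and become myoblasts, and the myoblasts fuse into new fibers that first use developmental forms of the contractile proteins and of the acetylcholine receptor. Fibroblasts lay down a temporary matrix over the same days.

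The 6 libraries held 16385233 to 27155738 counts, and the mitochondrial genome took 8.74% to 11.7% of them. Levels are given as CPM, counts scaled to a common library size by the trimmed mean of M-values, in replicate order 1, 2, 3. The 15 skeletal muscle markers were all measured and summed to 179640 to 202099 CPM in saline and 131776 to 173274 CPM in injury. On the first principal component of all 12 libraries, which held 62.6% of the variance, injury 3 at 6.01 lay nearer to the saline libraries (-50.25, -27.8 and -21.82) than injury 1 and injury 2 did (39.05 and 37.94).

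Far more genes rose than fell. Of the 15715 genes tested, 669 (4.26%) were called at an adjusted p under 0.05 by edgeR's quasi-likelihood test. Of these, 658 rose (4.19% of all genes tested) and 11 fell (0.0700%). The median log2 difference of the genes that rose was 1.49, and 515 of them were 2-fold or more higher, while the median over all genes tested was -0.03. At an unadjusted p under 0.05 there were 1871 higher and 602 lower genes. The smallest adjusted p was 0.0106. Together the genes that rose took 0.567%, 0.762% and 0.778% of the counts in the saline libraries and 1.88%, 1.99% and 1.19% in the injury libraries. They were chosen on those libraries. The naive libraries were outside the contrast but entered the filter and the fit of the spread, so they also had a part in that choice. In them these genes took 0.37% to 0.506%.

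**Figure D1:**
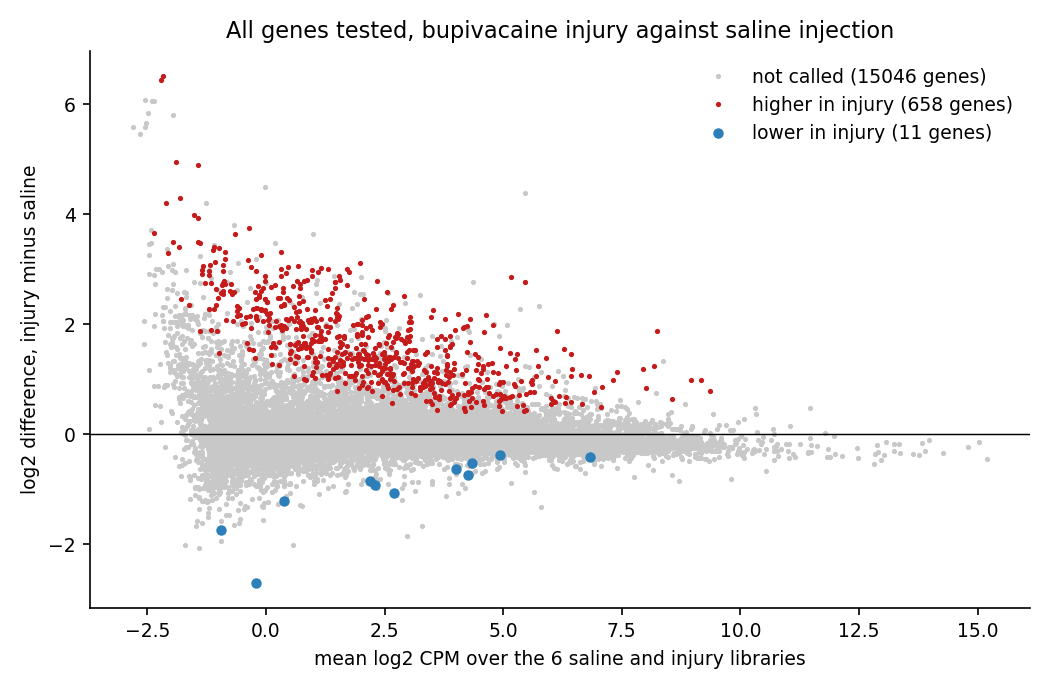
Each point is 1 of the 15715 genes tested, with the mean log2 CPM over the 6 saline and injury libraries on the horizontal axis and the log2 difference, injury minus saline, on the vertical axis. The 658 genes called higher (red) far outnumber the 11 called lower (blue).

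Single libraries carried unequal weight. Injury 3 was the lowest of the injury libraries for 623 of the 658 genes that rose, and saline 1 was the lowest of the saline libraries for 538 of them. Every injury library lay above every naive library for 655 of the 658. These genes were called on the saline and injury libraries. Where separate groups are given below for a called gene, that choice largely sets them and they add no support. The share of all genes tested with separate groups is not given here. The count of calls was 0 without injury 1 (1803 at an unadjusted p under 0.05), 74 without injury 2 and 103 without saline 1. It was 161 without saline 2, 428 without saline 3 and 1098 without injury 3. Over these fits the largest edgeR adjusted p was 0.0527 for Ccnb1, Coro1c, Soat1 and Tcirg1. Without injury 1 these genes therefore missed the threshold of 0.05 narrowly. Other called genes had larger values, such as 0.119 for Lgals3 and 0.183 for Actb. Naive 1 stood apart on the second principal component, at 62.3 beside -15.83 to 7.31 in the other 11, and 908 genes were called without it. The calls below are therefore from the fit of all 12 libraries, and counts without single libraries are given with them. Without injury 1, the member count of every list below was 0.

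**Figure D2:**
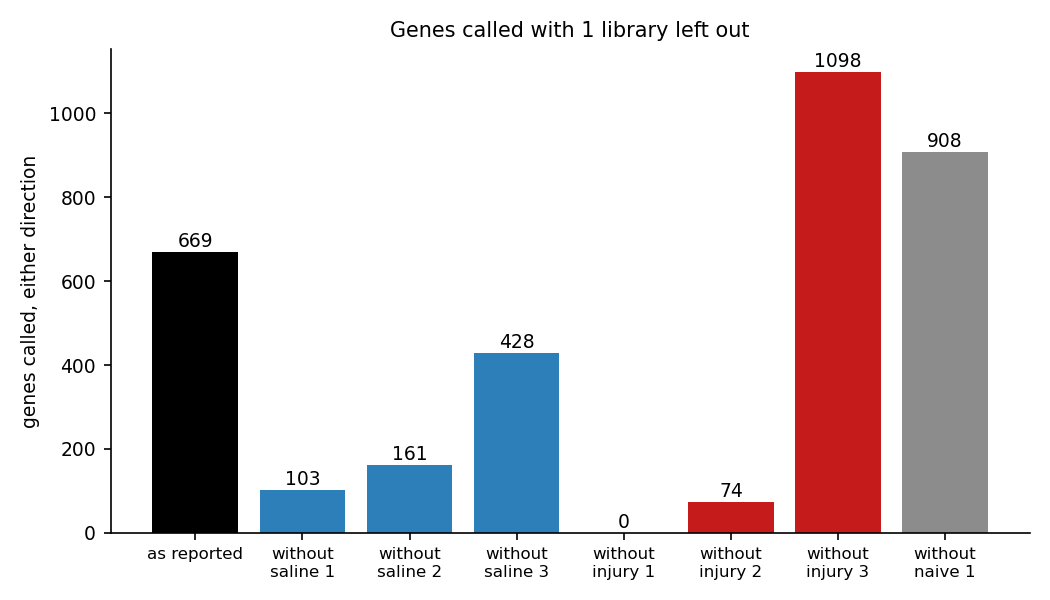
Bars give the number of genes called in either direction by edgeR's quasi-likelihood test with all 12 libraries (669, black) and with 1 library left out. The count ran from 0 without injury 1 to 1098 without injury 3.

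Cell division genes had the highest median of the lists described here. Of 50 mitosis and cytokinesis genes, all measured, 41 rose and none fell, at a median log2 difference of 2.23 beside -0.03 over all genes tested. In a whole-muscle library, more dividing cells and more of these transcripts per cell cannot be told apart, and the same holds for every cell type below. Cenpf, a kinetochore protein that appears late in the cell cycle, was at 0.192, 0.842 and 0.652 CPM in saline and at 7.54, 4.76 and 2.19 CPM in injury. The injury libraries all lay above the saline libraries, with injury 1 highest and saline 1 lowest, and the naive libraries lay at 0.0533 to 0.102 CPM. That was an 8.28-fold difference (log2 3.05 ± 0.45 SE, edgeR adjusted p = 0.0106). Nuf2, an outer kinetochore subunit, was at 0.128, 0.618 and 0.752 CPM in saline and 4.55, 3.23 and 2.19 CPM in injury (6.33-fold). Espl1, the separase that cuts cohesin at anaphase, was at 0.513, 0.842 and 1.4 CPM in saline and 5.98, 4.37 and 3.29 CPM in injury (4.79-fold). Both kept the same order, injury 1 highest, injury 3 lowest, and no overlap with saline.

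Racgap1, which acts with RhoA at the cleavage furrow, was at 2.31, 4.1 and 4.36 CPM in saline and 12.8, 11.5 and 8.34 CPM in injury, 3.01-fold higher (log2 1.59 ± 0.24 SE, edgeR adjusted p = 0.0106). A pair of mitotic genes, picked out after their values were seen, was at a similar level in naive, saline and injured muscle and did not pass. Aurka, a spindle pole kinase, was at 13.1, 10.9 and 8.58 CPM in saline and 12.7, 11.1 and 9.8 CPM in injury. Pttg1, the securin that holds separase inactive, was at 40.7, 51.2 and 44.8 CPM in saline and 38, 36.9 and 43.8 CPM in injury. The groups overlapped for both, and the naive libraries were at 8.73 to 12 CPM and 46.6 to 61.7 CPM. Leaving out other single libraries, 13 of the 50 mitotic genes passed without saline 1, 17 without injury 2, 19 without saline 2, 29 without saline 3 and 47 without injury 3.

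DNA replication genes rose less evenly, 18 of 40 with none lower, at a median log2 difference of 0.80. Uhrf1, which brings the maintenance methyltransferase to newly copied DNA, was at 0.321, 1.29 and 1.81 CPM in saline and 11.3, 8.99 and 5.67 CPM in injury. That was a 7.33-fold rise (log2 2.87 ± 0.43 SE, edgeR adjusted p = 0.0106), with naive muscle at 0.306 to 0.693 CPM. Tyms, the thymidylate synthase, rose 4.07-fold, from 0.706, 1.07 and 1.0 CPM to 5.24, 4.05 and 2.19 CPM. Lig1, the ligase that joins Okazaki fragments, went from 1.28, 2.3 and 2.56 CPM to 7.74, 8.88 and 4.72 CPM (3.43-fold), although part of its exons is shared with Zswim9. Mcm4, a subunit of the replicative helicase, was already near 5 CPM in naive muscle (5.06 to 5.97 CPM) and rose 2.01-fold, from 4.94, 6.46 and 6.57 CPM to 12.7, 13.3 and 10.2 CPM. In none of these 4 genes did the groups overlap. Of the 40, 3 passed without injury 2, 5 without saline 1, 7 without saline 2, 15 without saline 3 and 21 without injury 3.

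Cyclins, their kinases and E2F factors were put in a list after values had been seen, and 18 of 29 rose, at a median of 1.26. Ccna2, the S and G2 phase cyclin, shares exons with Exosc9 and was at 0.385, 1.12 and 1.81 CPM in saline and 10.9, 8.39 and 4.1 CPM in injury. Cks1b, the small subunit that docks onto cyclin-dependent kinases, was at 1.92, 3.03 and 3.31 CPM in saline and 7.29, 7.78 and 6.07 CPM in injury. Neither gene overlapped between the groups. Their rises were 6.81-fold for Ccna2 (log2 2.77 ± 0.49 SE, edgeR adjusted p = 0.0156) and 2.53-fold for Cks1b (log2 1.34 ± 0.22 SE, edgeR adjusted p = 0.0113). Without injury 2 or without saline 1, 1 of the 29 passed in each case, and without saline 2 it was 4. Among 27 p53 targets and growth arrest genes 1 rose, Gdf15, which is 3.7% beside 4.19% of all genes tested. Cdkn1a, which encodes the cyclin kinase inhibitor p21 and was picked out after its values were seen, was at 11.5, 20.3 and 19 CPM in saline and 72.5, 66.1 and 35.8 CPM in injury with no overlap, but had an edgeR adjusted p of 0.0886. Naive 1 was at 31.9 CPM for Cdkn1a where naive 2 and naive 3 were at 9.17 and 9.7 CPM, and without naive 1 the adjusted p was 0.0125.

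Promoters of dividing-cell genes are known to carry recurring short sequences. A CCAAT box binds NF-Y, and the cell cycle homology region, of which TTTGAA is a common form, binds the MuvB complexes that keep such genes silent in resting cells. RefSeq windows from 250 bases before to 50 bases after a start (build GRCm38.p6) were found for 35 of the 41 mitotic genes that rose. CCAAT, read on either strand, stood in 25 of the 35 windows, and in the windows of 41.1% of all 27025 genes with a window (37.4% of 32851 windows). TTTGAA stood in 26 of the 35 and in those of 20.2% of genes (17.9% of windows). Of all 42 measured mitotic genes with a window, 29 held CCAAT and 31 held TTTGAA. The letters were thus common in the list as a whole, called or not. Neither sequence contains the other. Ccnb1, the cyclin that drives entry into mitosis, had the smallest p of the protein-coding genes at 5 CPM or more in injury. It was at 0.321, 0.842 and 0.903 CPM in saline and 8.23, 5.51 and 3.26 CPM in injury, with no overlap (7.95-fold, log2 2.99 ± 0.39 SE, edgeR adjusted p = 0.0106). The stretches of 120 bases before the start of Cdk1, Cdc20 and Ccnb1 are printed to show how these letters are spaced, with matches on either strand in capitals and the gene's own strand 5′ to 3′.
Cdk1: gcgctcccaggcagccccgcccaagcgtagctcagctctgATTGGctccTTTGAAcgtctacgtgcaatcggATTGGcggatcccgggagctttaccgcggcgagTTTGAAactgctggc
Cdc20: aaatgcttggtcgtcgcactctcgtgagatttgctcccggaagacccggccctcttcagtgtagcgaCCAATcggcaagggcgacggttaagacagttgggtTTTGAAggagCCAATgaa
Ccnb1: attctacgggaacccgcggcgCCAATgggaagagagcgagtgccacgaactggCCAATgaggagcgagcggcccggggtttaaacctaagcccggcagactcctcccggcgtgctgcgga
The first lies at chr10:69352913-69353032, the second at chr4:118437344-118437463 and the third at chr13:100786487-100786606, all on the minus strand of GRCm38.p6. Cdk1 and Cdc20 hold both kinds of letters, Cdc20 with 3 matches and Cdk1 with 4, while the 2 matches in the Ccnb1 stretch are both CCAAT. A match is a description of the letters and not of a bound site.

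Replication genes are known targets of E2F factors, which bind forms such as TTTCCCGC and TTTGGCGC. Windows were found for 14 of the 18 replication genes that rose. TTTGGCGC or its other strand stood in 5 of the 14 (Cdt1, Dnmt1, Mcm3, Mcm5 and Mcm6) and in those of 0.585% of all genes with a window (0.514% of windows). TTTCCCGC stood in 3 of the 14 (Cdc6, Mcm3 and Mcm7) against 1.24% of genes (1.07% of windows). Of all 33 measured replication genes with a window, 7 held TTTGGCGC and 6 held TTTCCCGC. The 120 bases before the start of Mcm6 are printed because they hold TTTGGCGC at 2 places, in capitals.
Mcm6: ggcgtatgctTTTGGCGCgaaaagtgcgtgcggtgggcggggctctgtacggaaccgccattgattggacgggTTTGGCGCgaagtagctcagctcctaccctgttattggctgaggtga
The stretch lies at chr1:128359706-128359825 on the minus strand. Mcm6, a further subunit of the helicase, was at 4.43, 5.9 and 5.67 CPM in saline and 15.5, 15.4 and 9.15 CPM in injury. It rose 2.50-fold with no overlap between the groups (log2 1.32 ± 0.24 SE, edgeR adjusted p = 0.0151).

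Phagocyte genes rose across receptors, enzymes and lysosomes. The oxidase that phagocytes use to make superoxide had 7 genes measured, and 6 of them rose, at a median log2 difference of 1.62. Cybb, its catalytic membrane subunit, was at 4.23, 9.88 and 12.5 CPM in saline and 33.4, 25.3 and 21.5 CPM in injury. The cytosolic subunit Ncf4 was at 0.77, 1.29 and 1.55 CPM in saline and 5.2, 6.47 and 2.78 CPM in injury. Injury lay above saline for both, 3.00-fold for Cybb (edgeR adjusted p = 0.0232) and 3.92-fold for Ncf4 (edgeR adjusted p = 0.0178). Ncf1, another cytosolic subunit whose exons overlap Gtf2ird2, went from 2.12, 4.66 and 6.12 CPM to 16.5, 21.5 and 10.6 CPM. The one that did not pass, named after its values were seen, was Hvcn1, a proton channel that balances the charge, at 0.321, 0.842 and 1.1 CPM in saline and 3.07, 2.38 and 1.76 CPM in injury (edgeR adjusted p = 0.0548). Of the 7 genes, none passed without injury 2 or without saline 2, 2 without saline 1 and 5 without saline 3.

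Receptors that bind antibody or microbial sugars rose in 11 of 20, at a median of 1.63. Clec4n, which encodes dectin-2, was at 0.257, 0.337 and 0.201 CPM in saline and 2.99, 3.31 and 1.39 CPM in injury, and naive 1 at 1.44 CPM lay above naive 2 and naive 3 (0.213 and 0.153 CPM). The groups were separate, at 9.55-fold (log2 3.26 ± 0.64 SE, edgeR adjusted p = 0.0189). Syk, the kinase downstream of these receptors, rose 2.16-fold, from 6.61, 9.77 and 8.43 CPM to 20.8, 19.1 and 13.9 CPM. Clec4a3, a myeloid C-type lectin, went from 1.22, 1.52 and 2.11 CPM to 5.78, 5.83 and 3.99 CPM (3.18-fold). In each of the 3 genes the lowest injury library was injury 3 and it still exceeded every saline library. Without injury 2 no member passed, and without saline 1 or saline 2 only 1 did, while 4 did without saline 3.

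Among 31 macrophage receptors and transcription factors 12 rose, at a median of 1.32. Cd84, a receptor of the SLAM family, was at 1.41, 2.86 and 4.61 CPM in saline and 20.1, 15.1 and 8.67 CPM in injury, a 4.84-fold rise (log2 2.28 ± 0.38 SE, edgeR adjusted p = 0.0141). Csf2ra, the GM-CSF receptor alpha chain, was at 5.0, 6.01 and 6.57 CPM in saline and 15.1, 19.7 and 9.33 CPM in injury (2.50-fold). Groups did not overlap for either. Cd163, Lyve1 and Timd4, linked to macrophages that live in resting muscle and picked out after their values were seen, did not pass. They do not stand for such macrophages as a class. In the list as a whole 28 of 31 estimates were above 0, beside 45.8% of all genes tested. Cd163, a scavenger receptor for haptoglobin and hemoglobin, was at 23.4, 23.9 and 24.4 CPM in saline and 25.5, 30.1 and 27.1 CPM in injury (log2 0.21 ± 0.20 SE). Lyve1, a hyaluronan receptor also found on lymphatic endothelium, was at 13.9, 13.5 and 14.8 CPM in saline and 13.4, 28.6 and 18.3 CPM in injury, and the groups overlapped. Timd4, a phosphatidylserine receptor, was at 0.842 to 1.35 CPM in saline and 0.737 to 1.31 CPM in injury. None of the 31 passed without injury 2 or without saline 2, 3 did without saline 1 and 7 without saline 3.

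Genes of macrophages that take up and store lipid rose in 13 of 29, at a median of 0.99. Soat1, which esterifies cholesterol for storage, was at 3.02, 4.49 and 5.37 CPM in saline and 20.0, 17.9 and 11 CPM in injury. It rose 3.77-fold (log2 1.91 ± 0.25 SE, edgeR adjusted p = 0.0106), with naive muscle at 1.87 to 2.55 CPM. Lipa, the lysosomal lipase that frees cholesterol again, rose 2.80-fold, from 8.02, 12.4 and 14.1 CPM to 40.8, 32.7 and 23.5 CPM. Lgmn, a lysosomal protease, rose 2.74-fold, from 33.5, 60.4 and 69.6 CPM to 168, 179 and 102 CPM. The saline and injury libraries were separate in all 3 genes, and saline 1 was the lowest library of its group each time. Without injury 2, 1 of the 29 passed, and 4 did without saline 2, 6 without saline 1 and 18 without injury 3.

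Some of the best-known genes of this state had the widest spread and did not pass. They are named here after their values were seen. Spp1, which encodes osteopontin, was at 1.99, 12.7 and 26.8 CPM in saline and 249, 547 and 78.7 CPM in injury, 20.9-fold apart (log2 4.38 ± 1.14 SE, edgeR adjusted p = 0.0742). Gpnmb, a lysosome-associated membrane glycoprotein, was at 2.31, 21.3 and 43.4 CPM in saline and 205, 155 and 97.2 CPM in injury (edgeR adjusted p = 0.108). Trem2, a receptor for lipids, was at 0.321, 5.45 and 7.37 CPM in saline and 26.0, 28.7 and 15.7 CPM in injury (edgeR adjusted p = 0.0824). For all 3 genes the groups were separate, and saline 1 lay at the naive level (1.07 to 6.75 CPM for Spp1, 1.44 to 4.44 CPM for Gpnmb and 0.32 to 0.75 CPM for Trem2) while saline 2 and saline 3 lay above it.

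Lysosome and proton pump genes rose in 14 of 38, at a median of 0.39. Tcirg1, the a3 subunit of the proton pump, was at 9.82, 11.1 and 12.8 CPM in saline and 46.0, 39.0 and 22.6 CPM in injury, 3.19-fold higher with no overlap (log2 1.67 ± 0.23 SE, edgeR adjusted p = 0.0106). Grn, the lysosomal granulin precursor, rose 2.91-fold, from 30.9, 48.6 and 60.9 CPM to 147, 155 and 107 CPM, and part of its exons overlaps Fam171a2. Ctsb, which encodes cathepsin B and overlaps Fdft1, was at 414 ± 102 CPM in saline and 816 ± 140 CPM in injury (SD, n = 3) and was among the 12 genes with the largest gain in mean CPM, a ranking that favors long transcripts. Lgals3, galectin 3, was another of the 12 and rose 6.80-fold, from 7.7, 20.3 and 27.9 CPM to 141, 168 and 72.6 CPM, with naive muscle at 2.4 to 10.3 CPM. Of the 38, 2 passed without injury 2, 2 without saline 2, 3 without saline 1 and 9 without saline 3. Among 14 genes tied to osteoclasts and to macrophage fusion, 4 rose, with Tnfrsf11a, the receptor RANK, at 1.41, 1.8 and 1.91 CPM in saline and 6.8, 5.86 and 3.29 CPM in injury (3.09-fold). Without injury 2 or without saline 2 the count of that list was 1, and without saline 1 it was 2.

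Of 112 tested markers of 11 other cell types 1 rose, beside 4.19% of all genes tested. It was the mesothelial gene Msln, at 0.0642, 1.29 and 1.4 CPM in saline and 12.7, 5.54 and 3.99 CPM in injury (7.67-fold, edgeR adjusted p = 0.0246). None passed among the markers of neutrophils (7 tested), T and NK cells (5), B and plasma cells (7), mast cells and eosinophils (7), endothelium (24), pericytes and smooth muscle (14), Schwann cells (18), adipocytes (15), erythroid cells (6) and keratinocytes (3). At an unadjusted p under 0.05 edgeR gave 6 higher and 3 lower of the 112. DESeq2 called 1 higher, a mesothelial marker. The 2 that limma-voom called higher were a neutrophil marker and a B or plasma cell marker, and Msln was not called by it. Of the 7 neutrophil markers 6 had estimates above 0, at a median of 1.28, and 1 passed without naive 1. Neutrophil markers summed to 5.26 to 8.88 CPM in saline and to 17.2, 38 and 9.99 CPM in injury, with no overlap. Their naive sums were 16.9, 2.45 and 5.0 CPM, so naive 1 lay above injury 3. Ly6g and Ngp were at 0 in all 6 saline and injury libraries. The leading neutrophil marker, Chil3, which macrophages also express, was at 0.0642, 0.505 and 1.86 CPM in saline and 6.51, 23.2 and 2.12 CPM in injury (edgeR adjusted p = 0.269). Erythroid markers summed to 70.2 to 156 CPM in saline and to 213, 69.3 and 453 CPM in injury, so the groups overlapped. What part these cells had in the results was not tested.

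**Figure D3:**
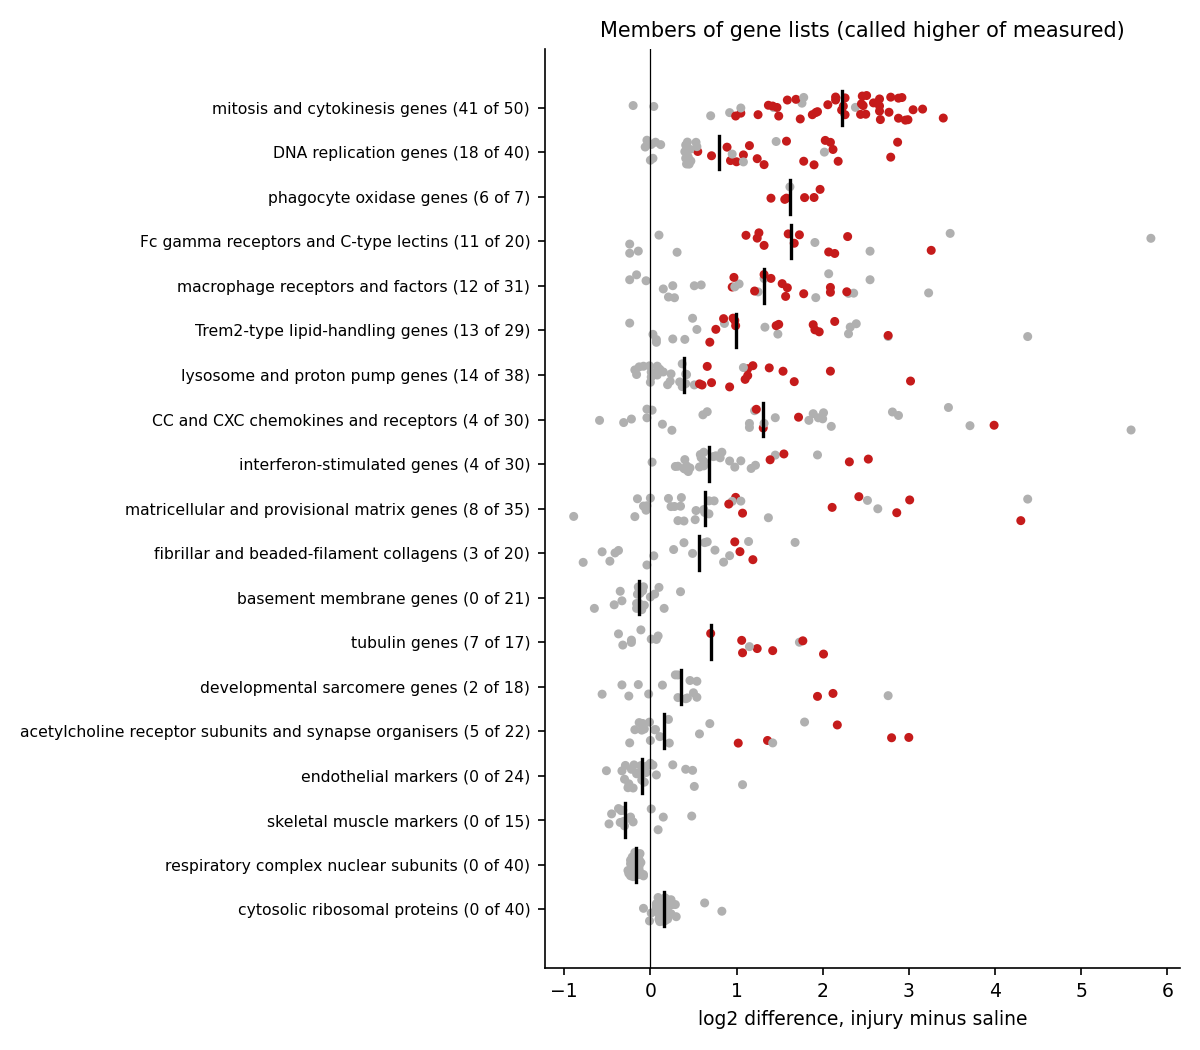
Each point is a measured member of the list named on the left, placed by its log2 difference, injury minus saline, with red for members called higher and grey for members not called, and the black line at the median. The counts beside the names are members called higher of members measured, from 41 of 50 mitotic genes to 0 of 40 respiratory subunits and 0 of 40 ribosomal proteins.

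Signals of inflammation passed the test in smaller numbers. Of 30 chemokines and chemokine receptors 4 rose, Cxcr4, Ccl3, Cxcl16 and Pf4, at a median of 1.31 for the list. Cxcr4, the receptor for Cxcl12 on leukocytes and satellite cells, was at 2.31, 4.72 and 5.12 CPM in saline and 18, 11.9 and 10.6 CPM in injury, 3.30-fold higher (log2 1.72 ± 0.26 SE, edgeR adjusted p = 0.0106). Pf4, platelet factor 4, which tissue macrophages also make, was at 13.4, 15.6 and 18.1 CPM in saline and 31.9, 47.1 and 31.4 CPM in injury (2.34-fold). Cxcl16, a membrane-bound chemokine that overlaps Zmynd15, went from 1.28, 3.2 and 3.01 CPM to 7.66, 6.68 and 4.5 CPM (2.48-fold). The groups were separate for these 3 genes. With any one of saline 1, saline 2, saline 3 or injury 2 left out, 1 of the 30 passed.

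In the interleukin 1 and inflammasome list 4 of 19 rose, at a median of 0.73. All 19 estimates were above 0, beside 45.8% of all genes tested. Tnfrsf1b, the second TNF receptor, rose 2.70-fold, from 7.31, 7.24 and 11.9 CPM to 31.1, 25.8 and 14.8 CPM (log2 1.43 ± 0.27 SE, edgeR adjusted p = 0.0176). Il10ra, the interleukin 10 receptor chain, rose 2.81-fold, from 2.18, 4.04 and 6.17 CPM to 13.7, 12.1 and 9.4 CPM. Pycard, the adaptor that builds the inflammasome, rose 2.88-fold, from 0.706, 1.18 and 1.45 CPM to 3.81, 4.23 and 1.79 CPM. Injury 3 was the lowest of its group in each, and still above saline. Il1b itself, picked out after its values were seen, was at 0 to 0.201 CPM in saline and 0.123 to 0.391 CPM in injury, and the groups overlapped. None of the 19 passed without injury 2 or without saline 1, and 1 did without saline 2.

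Interferon-stimulated genes had all 30 estimates above 0, beside 45.8% of all genes tested, at a median of 0.68, and 4 of them rose. Oas3, which makes the messenger that activates RNase L, was at 0.385, 0.168 and 0.451 CPM in saline and 1.64, 2.52 and 1.72 CPM in injury, 5.76-fold higher (edgeR adjusted p = 0.019). Zbp1, a sensor of Z-form nucleic acid, went from 0.77, 0.73 and 1.15 CPM to 2.33, 3.41 and 2.12 CPM, 2.93-fold higher (edgeR adjusted p = 0.0325). Both had injury 2 as the highest library, and neither overlapped with saline. None of the 30 passed without injury 2, saline 1 or saline 2, and 1 did without saline 3.

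Genes of antigen presentation rose modestly, 3 of 10 in the MHC class II list, at a median of 0.74. All 10 estimates were above 0, beside 45.8% of all genes tested. All 10 had an unadjusted p under 0.05 in edgeR, as did 2473 of all 15715 genes tested. Cd74, the invariant chain, was at 49.6, 72.8 and 69.4 CPM in saline and 107, 97.1 and 102 CPM in injury, 1.59-fold higher (log2 0.67 ± 0.15 SE, edgeR adjusted p = 0.029). H2-Aa, a class II alpha chain, went from 22.0, 29.9 and 26.5 CPM to 47.1, 34.0 and 42.0 CPM (1.57-fold). The gap between groups was narrow for H2-Aa, whose saline 2 nearly reached injury 2. None of the 10 passed without injury 2, saline 1 or saline 2, 1 did without saline 3, and 6 did without injury 3 or without naive 1. Of 21 complement genes 3 rose, the C1q chain C1qb and the anaphylatoxin receptors C3ar1 and C5ar1. C3, the central component, picked out after its values were seen, was at 150, 123 and 111 CPM in saline and 85.3, 141 and 132 CPM in injury and overlapped fully. Of the 21, none passed without injury 2, saline 1 or saline 2, and 5 did without naive 1.

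Iron handling changed in 2 of 18 genes. Slc11a1, the metal exporter of the phagosome membrane, was at 3.53, 4.27 and 5.62 CPM in saline and 19, 18.6 and 9.04 CPM in injury, 3.45-fold higher (log2 1.79 ± 0.28 SE, edgeR adjusted p = 0.0106). Ftl1, the ferritin light chain, rose 2.18-fold, from 102, 117 and 124 CPM to 235, 313 and 199 CPM, although near-identical copies in the genome may share its reads. Both passed with any one of the saline libraries, injury 2 or injury 3 left out. Hmox1, the heme oxygenase, picked out after its values were seen, was at 13.6, 11.2 and 11.7 CPM in saline and 27.1, 39.0 and 19.1 CPM in injury. Its groups were separate, but naive 1 was at 31.9 CPM where naive 2 and naive 3 were at 7.2 and 8.78 CPM, and the edgeR adjusted p was 0.352.

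Of 20 fibrillar and beaded-filament collagens 3 rose (Col1a1, Col3a1 and Col5a2), and of 21 basement membrane genes 0 did, with median log2 differences of 0.56 and -0.13. The difference between the lists was not tested. Col1a1, the main chain of type I collagen, was at 127, 219 and 159 CPM in saline and 475, 437 and 242 CPM in injury. It rose 2.28-fold (log2 1.19 ± 0.26 SE, edgeR adjusted p = 0.0284), and saline 2 lay just under injury 3. Hspg2, the perlecan of basement membranes, was at 254 ± 25.3 CPM in saline and 240 ± 3.89 CPM in injury (SD, n = 3), with an edgeR adjusted p of 0.794. Lamc1, a laminin chain, was at 140 ± 9.72 CPM and 125 ± 11.7 CPM. No basement membrane gene had an unadjusted p under 0.05 in edgeR, and DESeq2 and limma-voom called 0. Without injury 2, saline 1 or saline 3, none of the 20 collagens passed, and 5 did without injury 3.

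Matricellular and provisional matrix genes rose in 8 of 35, at a median of 0.63. Postn, which encodes periostin and was picked out after its values were seen, was at 6.42, 25.4 and 15.1 CPM in saline and 192, 111 and 40.3 CPM in injury. That was 7.28-fold (log2 2.86 ± 0.62 SE, edgeR adjusted p = 0.0351), with naive muscle at 5.26 to 7.38 CPM. Bgn, the small proteoglycan biglycan and also the 1 of 21 fibro-adipogenic progenitor markers that rose, went from 50.9, 81.1 and 78.8 CPM to 154, 179 and 109 CPM (2.10-fold). For the fibro-adipogenic markers, 1 of 21 is 4.76%, beside 4.19% of all genes tested. The fibro-adipogenic markers summed to 2695 to 2920 CPM in saline and to 2039, 2177 and 3301 CPM in injury, so the groups overlapped. Fn1, the fibronectin of provisional matrix, was among the 12 genes with the largest gain in mean CPM, from 94.2, 126 and 123 CPM to 245, 255 and 180 CPM (1.98-fold, edgeR adjusted p = 0.0206). None of the 35 passed without injury 2 or without saline 1, 1 did without saline 2, 3 without saline 3 and 14 without injury 3.

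Enzymes that finish and crosslink collagen rose in 4 of 28. Lox, which oxidizes lysines for crosslinks, was at 10, 10.9 and 8.08 CPM in saline and 39.7, 54.2 and 16.2 CPM in injury (3.79-fold, log2 1.92 ± 0.43 SE, edgeR adjusted p = 0.0382). Loxl3, a related oxidase that overlaps Htra2, went from 3.21, 5.05 and 3.86 CPM to 11.4, 14.1 and 6.51 CPM (2.64-fold). P4ha3, a prolyl hydroxylase subunit, was at 0, 0.449 and 0.0502 CPM in saline and 2.17, 1.67 and 0.915 CPM in injury (9.08-fold). Plod2, a lysyl hydroxylase, rose 2.12-fold and shares exons with a predicted gene. Injury lay above saline in each, with injury 3 lowest. Among 30 metalloproteinases and inhibitors 3 rose. Adam19, a membrane-bound sheddase, went from 5.65, 7.08 and 8.23 CPM to 18.8, 14.5 and 12.7 CPM (2.18-fold, edgeR adjusted p = 0.0178). Plaur, the urokinase receptor, went from 1.67, 2.81 and 2.81 CPM to 7.5, 10.5 and 4.72 CPM (3.09-fold, edgeR adjusted p = 0.0358). Without injury 2 or saline 1, none of either list passed. Of the collagen enzymes none passed without saline 3, 1 without saline 2 and 7 without injury 3. Of the metalloproteinase list none passed without saline 2, 5 without injury 3 and 9 without naive 1.

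Of 36 genes of the TGF-beta family 4 rose, with a median of -0.12 for the list. Ltbp2, a binding protein of the matrix, was at 0.577, 1.12 and 0.602 CPM in saline and 4.3, 6.61 and 1.46 CPM in injury (5.34-fold, edgeR adjusted p = 0.0372). Id2, a target of BMP signals that blocks basic helix-loop-helix factors, went from 1.54, 3.54 and 3.16 CPM to 9.63, 7.93 and 5.08 CPM (2.72-fold, edgeR adjusted p = 0.0271). The groups were separate in both. Tgfb1 and Gdf15 were the other members that rose. Runx2, a bone and cartilage factor, was the 1 of 8 measured cartilage and bone genes that rose, from 1.22, 1.29 and 2.06 CPM to 4.55, 2.84 and 2.45 CPM (2.12-fold, edgeR adjusted p = 0.0441). None of the 36 and none of the 8 passed without injury 2 or without saline 1. Without saline 2 the counts were 1 and 0, and without saline 3 they were 2 and 1.

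**Figure D4:**
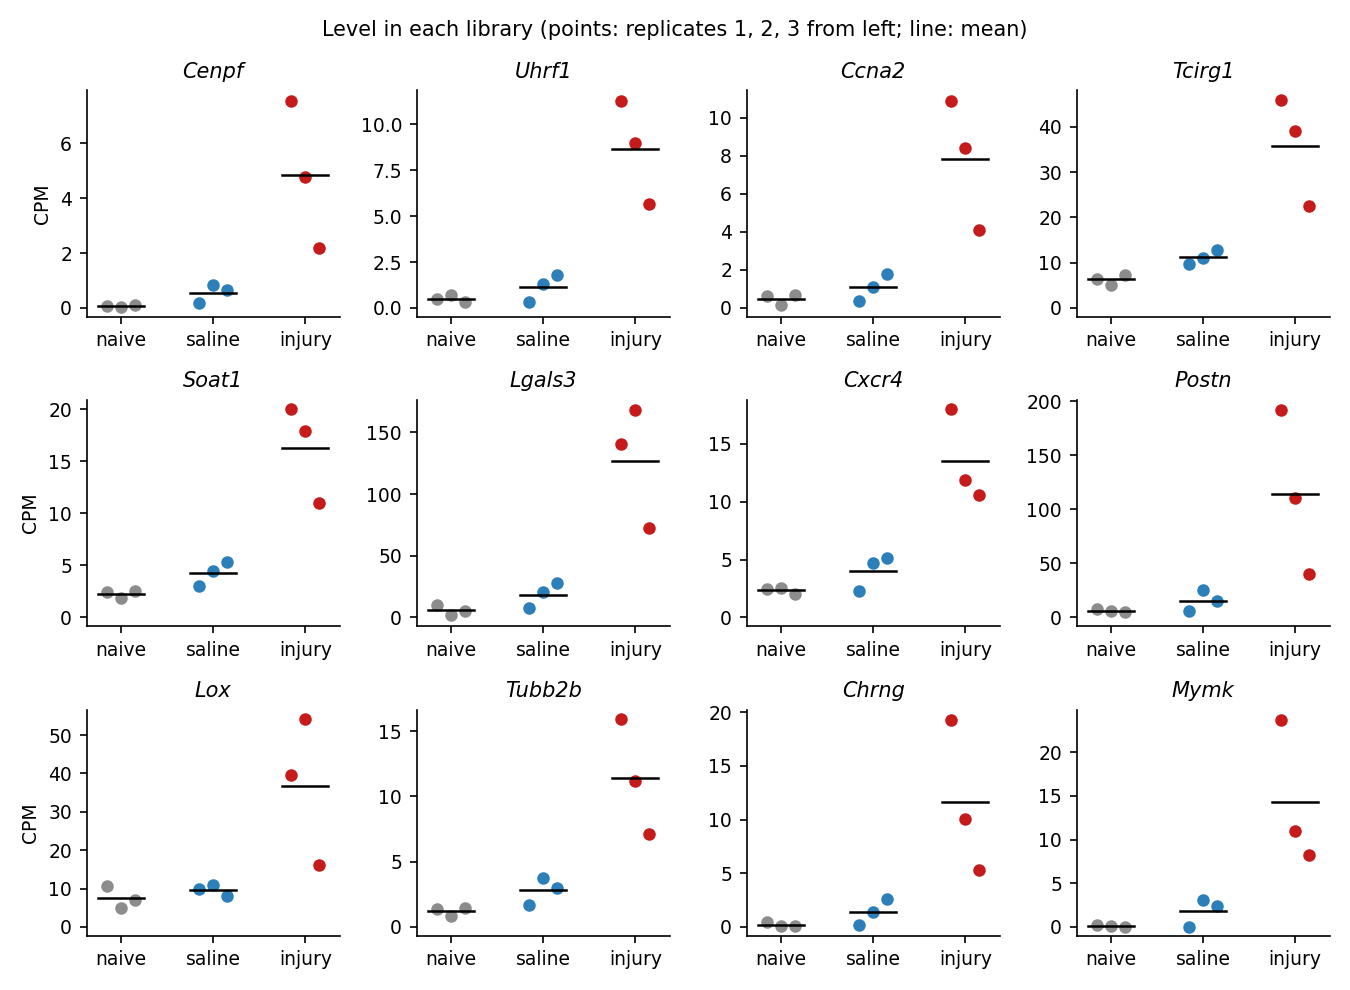
CPM in each naive, saline and injury library (points, replicates 1 to 3 from left to right) with the group mean (line) for 12 genes, each on its own axis. In all 12 genes every injury library lies above every saline library, and injury 3 is the lowest injury library. All 12 were called higher on these same libraries, so the separate groups are largely set by that choice.

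Genes of the satellite cell and its descendants rose in part. Among 19 satellite cell genes 2 rose, Cxcr4 and Vcam1. Vcam1, an adhesion molecule of quiescent satellite cells and of endothelium, was at 5.77, 5.0 and 6.52 CPM in saline and 12.7, 11.4 and 8.82 CPM in injury (1.90-fold, log2 0.92 ± 0.23 SE, edgeR adjusted p = 0.043). Cdh15, the M-cadherin of satellite cells and myoblasts, was at 24.9, 27.6 and 23.1 CPM in saline and 43.1, 45.3 and 27.7 CPM in injury, at an adjusted p just above the threshold (0.0521). Pax7, the defining factor of satellite cells, picked out after its values were seen, was at 2.89, 4.32 and 4.31 CPM in saline and 6.51, 5.86 and 4.39 CPM in injury, groups barely separate (log2 0.53 ± 0.22 SE, edgeR adjusted p = 0.257). With injury 2 or any one saline library left out, 1 of the 19 passed, while 6 did without injury 3 and 5 without naive 1.

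Among 23 measured myogenic factors and fusion genes 2 rose, Myog and Mymk. Mymk, the membrane protein that starts myoblast fusion, was at 0, 3.09 and 2.36 CPM in saline and 23.7, 11 and 8.27 CPM in injury (7.65-fold, log2 2.94 ± 0.68 SE, edgeR adjusted p = 0.0397). Mymx, its partner that completes fusion, was at 0, 2.53 and 1.0 CPM in saline and 10.7, 6.04 and 4.76 CPM in injury. Saline 1 held no read of either gene while saline 2 and saline 3 held some, and naive muscle was at 0.051 to 0.188 CPM for Mymk and 0 to 0.563 CPM for Mymx. Mymx had an edgeR adjusted p of 0.0771 with all libraries and 0.0252 without naive 1. Myod1, the factor that commits satellite cells to muscle, was at 22.6, 27.9 and 24.7 CPM in saline and 48.1, 39.4 and 42.7 CPM in injury, which did not overlap. It missed the threshold (log2 0.79 ± 0.78 SE, edgeR adjusted p = 0.685), with naive 1 at 195 CPM and naive 2 and naive 3 at 19.3 and 19.4 CPM. Myf6, a factor of mature fibers, was at 142, 130 and 125 CPM in saline and 103, 163 and 132 CPM in injury and overlapped. No member passed without injury 2, saline 2 or saline 3, 1 did without saline 1, and 5 did without injury 3 or without naive 1.

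Developmental sarcomere genes rose in 2 of 18, Tnnt2 and Myl4. Tnnt2, the cardiac and embryonic troponin T, was at 2.82, 8.48 and 5.77 CPM in saline and 36.7, 21 and 17.0 CPM in injury (4.35-fold, log2 2.12 ± 0.39 SE, edgeR adjusted p = 0.0182). Myl4, the embryonic and atrial light chain, rose 3.83-fold, from 6.09, 12.1 and 10.9 CPM to 55.6, 35.5 and 20.8 CPM, and overlaps Gm22000. Myh3, the embryonic myosin heavy chain, was at 1.09, 18 and 13.3 CPM in saline and 133, 51.7 and 37.4 CPM in injury, separate but with an edgeR adjusted p of 0.104. Myh8, the perinatal heavy chain, was at 13.4, 10.8 and 11.3 CPM in saline and 18.4, 13.0 and 13.0 CPM in injury, where saline 1 exceeded injury 2 and injury 3. Members of the list that mark fiber stress, Ankrd1 and Xirp1, did not pass, with naive 1 at 936 and 5591 CPM and every other naive, saline and injury library at 19.9 to 95.1 and 131 to 552 CPM. None of the 18 passed without injury 2, and 1 did with any one saline library left out. With the 6 saline and injury libraries fitted alone, none passed.

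The acetylcholine receptor of muscle is built of alpha, beta and delta subunits plus gamma in developing or denervated fibers and epsilon in adult innervated ones. Of 22 measured genes of the receptor and its synapse 5 rose, Chrna1, Chrng, Ncam1 and Myog among them. Per transcript length, in FPKM, the epsilon subunit Chrne was the higher of the pair in both groups, at 9.48 FPKM in saline and 8.06 FPKM in injury, while gamma (Chrng) was at 0.33 and 2.78 FPKM. The alpha subunit Chrna1 was at 5.43 and 14.1 FPKM, the beta subunit Chrnb1 at 19.5 and 22.9 FPKM and the delta subunit Chrnd at 1.15 and 3.16 FPKM. By CPM, Chrng was at 0.192, 1.4 and 2.56 CPM in saline and 19.3, 10.1 and 5.3 CPM in injury (8.01-fold, log2 3.00 ± 0.65 SE, edgeR adjusted p = 0.0306). Chrna1 rose 2.57-fold, from 19.1, 24.8 and 28.3 CPM to 76.6, 65.9 and 43.6 CPM (edgeR adjusted p = 0.0128). Chrnd had separate groups, 1.48, 5.5 and 4.51 CPM against 15.2, 10.1 and 5.96 CPM, at an edgeR adjusted p of 0.0994. Chrnb1 and Chrne overlapped between the groups, with log2 differences of 0.22 ± 0.21 SE and -0.24 ± 0.20 SE.

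**Figure D5:**
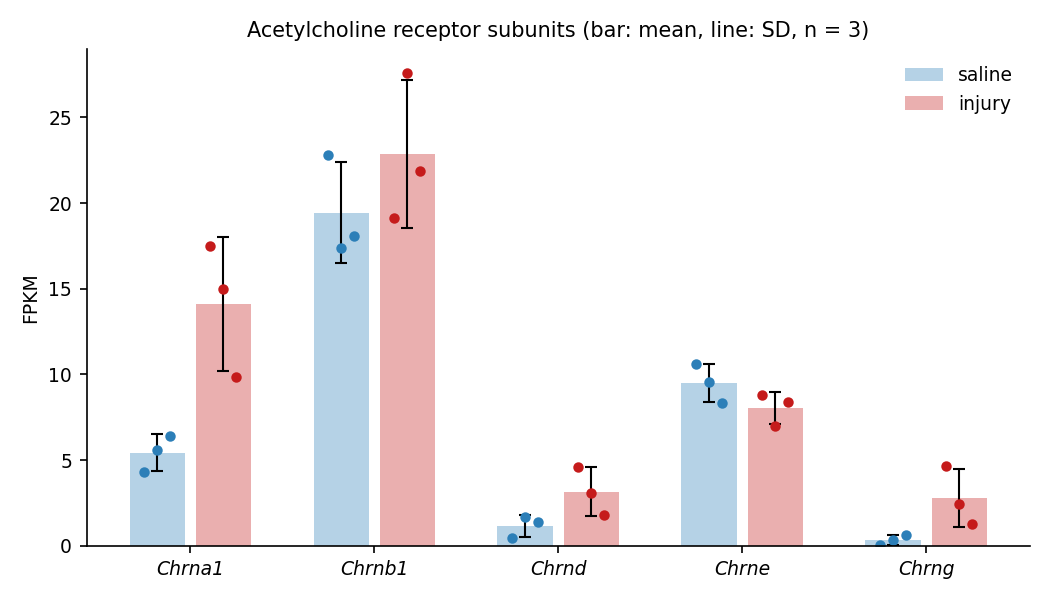
FPKM of the 5 acetylcholine receptor subunits in the saline (blue) and injury (red) libraries, with points for libraries, bars for means and lines for the SD (n = 3). The gamma subunit Chrng went from 0.33 to 2.78 FPKM and stayed below the epsilon subunit Chrne in both groups.

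The genes that organize the synapse, Musk, Agrn, Lrp4, Dok7 and Rapsn, had log2 differences between -0.13 and 0.05 with overlapping groups. Musk, the receptor kinase of the synapse, was at 66.7, 51.3 and 53.6 CPM in saline and 50, 68.9 and 51.3 CPM in injury. Runx1, a factor induced in denervated muscle, was at 5.32, 5.67 and 7.57 CPM in saline and 26.6, 24.6 and 13.1 CPM in injury. Its edgeR adjusted p was 0.485 with all libraries, where naive 1 stood at 65.1 CPM against 2.24 and 3.21 CPM, and 0.0133 without naive 1. Of the 22, 1 passed without injury 2 or without saline 1, 2 without saline 2 and 3 without saline 3.

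Muscle regulatory factors bind E-boxes, of which CAGCTG is a common form and reads the same on both strands. RefSeq windows were found for 3 of the 5 receptor and synapse genes that rose. CAGCTG stood in 2 of them (Chrna1 and Chrng), against those of 18.3% of all genes with a window (16.3% of windows). Of all 15 measured members of that list with a window, 6 held CAGCTG. The 120 bases before the start of Chrna1 hold it at 2 places, shown in capitals, at chr2:73580339-73580458 on the minus strand of GRCm38.p6.
Chrna1: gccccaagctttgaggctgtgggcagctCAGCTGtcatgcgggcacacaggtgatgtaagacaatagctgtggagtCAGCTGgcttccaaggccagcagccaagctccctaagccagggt
A window was found for 1 of the 2 myogenic genes that rose and did not hold CAGCTG. The PU.1 form GAGGAAGT, searched on both strands, was in none of the 8 windows found for the 12 macrophage genes that rose, and in those of 3.69% of all genes (3.2% of windows).

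Of 17 tubulin and tubulin-binding genes 7 rose, at a median of 0.70. Tubb2b, a beta-tubulin best known from developing neurons, was at 1.67, 3.76 and 2.96 CPM in saline and 15.9, 11.2 and 7.1 CPM in injury, 4.02-fold higher (log2 2.01 ± 0.33 SE, edgeR adjusted p = 0.0122). Tubb5 rose 2.09-fold, from 52.8, 64.1 and 64.8 CPM to 141, 147 and 92.4 CPM, and Tuba1b rose 2.36-fold, from 26.6, 42.7 and 37.1 CPM to 95.8, 98.6 and 56.6 CPM. Stmn1, stathmin, which binds free tubulin in dividing cells, rose 3.42-fold, from 1.6, 5.56 and 4.06 CPM to 15.1, 14.9 and 8.74 CPM. A pair of isotypes with high counts in naive muscle, picked out after their values were seen, did not pass. Tuba4a was at 672, 621 and 658 CPM in saline and 652, 613 and 695 CPM in injury, and Tuba8 at 255, 241 and 236 CPM against 160, 180 and 225 CPM (log2 -0.37 ± 0.14 SE, edgeR adjusted p = 0.191). Tubulin genes are closely alike, so reads may be split between copies. Of the 17, 1 passed without injury 2, 2 without saline 1, 3 without saline 3 and 4 without saline 2.

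Among 25 genes of the dystrophin complex and membrane repair 5 rose. Myof, myoferlin, a relative of dysferlin that is high in myoblasts, was at 10.3, 13.0 and 15.6 CPM in saline and 45.7, 38.1 and 23.4 CPM in injury (2.74-fold, log2 1.45 ± 0.25 SE, edgeR adjusted p = 0.0138). The annexins Anxa1, Anxa2 and Anxa4 rose 1.99-fold, 2.29-fold and 1.80-fold. Anxa2, a calcium-dependent membrane binder, was at 52.9, 65.5 and 57.3 CPM in saline and 146, 162 and 94.3 CPM in injury. Dysf, dysferlin of the mature fiber membrane, picked out after its values were seen, was at 118, 91.9 and 104 CPM in saline and 79.1, 116 and 104 CPM in injury and overlapped. None of the 25 passed without injury 2 or without saline 1, and 2 did without saline 2 or saline 3.

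Skeletal muscle markers and adult sarcomere genes did not pass. The 15 skeletal muscle markers had a median log2 difference of -0.30 and the 22 adult myosin and fast sarcomere genes one of -0.28, and in both lists edgeR gave 0 genes at an unadjusted p under 0.05 and DESeq2 and limma-voom called 0. Tnnt3, the fast troponin T, was at 16913 ± 1257 CPM in saline and 13733 ± 1584 CPM in injury (SD, n = 3), with an edgeR adjusted p of 0.51. Of 25 calcium handling and excitability genes 1 rose (4.0%, beside 4.19% of all genes tested), at a median of -0.29. At an unadjusted p under 0.05 edgeR gave 3 higher and 5 lower of the 25. None passed without saline 1, and 1 did without injury 2, saline 2 or saline 3. Slow-fiber genes varied widely between the saline libraries. Myh7, the slow myosin heavy chain, was at 4.88, 382 and 255 CPM in saline and 240, 151 and 269 CPM in injury. Tnnt1, the slow troponin T, was at 3.46, 131 and 96.9 CPM and at 123, 68.8 and 115 CPM. Saline 1 was far below every other library for both, and below the naive libraries too (144 to 465 CPM for Myh7 and 61.3 to 178 CPM for Tnnt1).

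All 40 nuclear-coded respiratory subunits had estimates below 0, at a median of -0.17, and 12 of 13 mitochondrial genome transcripts did too, at the same median. Over all genes tested 8523 of 15715 estimates were below 0. Without saline 2 the median of the subunits was 0.0. Their median log2 deviations from the saline mean were -0.29, 0.24 and 0.04 in the saline libraries. In the injury libraries these were -0.1, -0.23 and -0.1, within the saline range. No gene of either list was called by edgeR, DESeq2 or limma-voom, and at an unadjusted p under 0.05 edgeR gave 0 subunits and 2 mitochondrial transcripts, 1 in each direction. Atp5b, the catalytic beta subunit of ATP synthase, was at 3100 ± 513 CPM in saline and 2706 ± 224 CPM in injury (SD, n = 3). Of the 40 cytosolic ribosomal proteins 38 had estimates above 0, beside 45.8% of all genes tested, at a median of 0.16. edgeR called none of them (2 at an unadjusted p under 0.05), and DESeq2 and limma-voom each called 1 higher. Of the 36 glycolysis and glycogen genes 1 rose, Eno1, the enolase of non-muscle cells, from 106, 118 and 116 CPM to 174, 168 and 138 CPM (1.41-fold, edgeR adjusted p = 0.0427), and the list had a median of -0.35. At an unadjusted p under 0.05 edgeR gave 4 higher and 11 lower of the 36, and no member was called lower by edgeR, DESeq2 or limma-voom. Among 14 polyamine genes edgeR called 0 (3 higher and 3 lower at an unadjusted p under 0.05, and 1 higher and 2 lower each by DESeq2 and limma-voom), with Smox, the spermine oxidase, at 1697, 933 and 993 CPM in saline and 560, 662 and 850 CPM in injury (log2 -0.81 ± 0.23 SE, edgeR adjusted p = 0.0706). In Smox the groups were separate and saline 1 was the highest library. Of 28 endoplasmic reticulum chaperones 1 rose, Pdia4, a disulfide isomerase, from 14.9, 15.5 and 13.5 CPM to 26.3, 28.1 and 20.2 CPM (1.70-fold, edgeR adjusted p = 0.0176). Mest, an imprinted gene of growing tissue that overlaps Copg2, was the 1 of 18 imprinted growth genes that rose, from 7.12, 8.2 and 7.12 CPM to 27.7, 12.8 and 12.5 CPM (2.36-fold, edgeR adjusted p = 0.0315). The glycolysis, chaperone and imprinted lists had 2.78%, 3.57% and 5.56% of members called higher, beside 4.19% of all genes tested. Without injury 2 no member of the glycolysis, chaperone or imprinted lists passed, and without injury 3 the counts were 2, 6 and 4. The glycolysis list had none without any one saline library, the chaperone list none without saline 1, and the imprinted list none without saline 1 or saline 3.

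Actin assembly genes were listed after values had been seen, and 19 of 49 rose, at a median of 0.51. Coro1c, a coronin that binds actin filaments at the leading edge of moving cells, was at 14.7, 15.6 and 17.0 CPM in saline and 34.0, 34.8 and 26.3 CPM in injury. It had one of the smallest p-values of all genes at a modest 2.01-fold rise (log2 1.01 ± 0.13 SE, edgeR adjusted p = 0.0106). Capg, which caps filament ends, rose 2.36-fold. Without injury 2, saline 1 or saline 2, 1 of the 49 passed in each case, and 6 did without saline 3. Serine synthesis and one-carbon genes, also listed afterwards, had 2 of 17 that rose, the enzymes of the first steps of serine synthesis. Phgdh was at 3.59, 3.71 and 3.66 CPM in saline and 12.2, 9.03 and 7.54 CPM in injury (2.62-fold, edgeR adjusted p = 0.0106), and Psat1 at 3.53, 4.94 and 5.12 CPM against 18.4, 15.2 and 10.4 CPM (3.22-fold, edgeR adjusted p = 0.0135). The saline libraries were nearly level for Phgdh, and the groups were separate in both genes. Of the 17, 1 passed without injury 2 or saline 1, 3 without saline 3 and 4 without injury 3.

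The lists held 219 of the 658 genes that rose. Of the 439 others, 4 were among the 12 of smallest p in edgeR's test that code for a protein and reached 5 CPM in injury. Hpse, the heparanase that cuts heparan sulfate chains of the matrix, was at 1.48, 2.19 and 2.86 CPM in saline and 9.67, 7.53 and 5.82 CPM in injury (3.48-fold, edgeR adjusted p = 0.0106). Trpv2, a cation channel of macrophages and muscle, went from 1.22, 2.25 and 1.5 CPM to 6.02, 6.72 and 4.46 CPM (3.44-fold, edgeR adjusted p = 0.0106). Slc29a3, a lysosomal nucleoside transporter, went from 5.39, 5.67 and 5.82 CPM to 15.4, 13.7 and 10.8 CPM (2.36-fold, edgeR adjusted p = 0.0106). Adgre5, the adhesion receptor CD97 of leukocytes, rose 1.80-fold, from 15.8, 17.3 and 17.6 CPM to 33.7, 33.1 and 24.2 CPM, and overlaps Ddx39. In all 4 the groups were separate and every naive library lay below the highest saline library. The largest gain in mean CPM among the genes that rose was that of Lyz2, the lysozyme of macrophages, at 81.3, 197 and 228 CPM in saline and 709, 728 and 417 CPM in injury (3.66-fold, edgeR adjusted p = 0.0198). Its groups were separate, with naive muscle at 40.9 to 70.1 CPM, and reads may be split with its close copy Lyz1. The first 12 by this gain also held Vim, the intermediate filament of mesenchymal cells and leukocytes, at 148, 199 and 230 CPM in saline and 525, 476 and 352 CPM in injury (2.35-fold, edgeR adjusted p = 0.0119). Eef1a1, Actb, Tmsb4x and Tmsb10 were among them too, rising 1.73-fold, 1.55-fold, 1.78-fold and 3.68-fold, but these have many near-identical copies in the genome and are uncertain.

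The 11 genes that fell were few, mostly low and spread over unrelated functions. Over all genes tested, 0 were called lower without injury 1, injury 2 or saline 1. That count was 2 without saline 2, 10 without saline 3 and 25 without injury 3. Glyctk, the glycerate kinase, was at 0.706, 0.786 and 0.803 CPM in saline and 0.287, 0.178 and 0.219 CPM in injury. It fell to 0.299 of the saline level (log2 -1.74 ± 0.41 SE, edgeR adjusted p = 0.0342), with naive muscle at 0.375 to 0.612 CPM. Glyctk rested on 5 to 16 reads in each saline and injury library. With any one of these libraries left out, its edgeR adjusted p was 0.0616 or more. Igfals, which keeps circulating insulin-like growth factors in a large complex, was at 8.08, 7.47 and 4.97 CPM in saline and 2.91, 3.02 and 4.76 CPM in injury (log2 -0.93 ± 0.24 SE, edgeR adjusted p = 0.0441), and injury 3 nearly met saline 3. Cadm4, an adhesion molecule of Schwann cells and epithelia, was at 5.71, 6.79 and 5.52 CPM against 3.11, 3.27 and 3.62 CPM. Neto2, an accessory subunit of kainate receptors, was at 30.2, 23.8 and 20.3 CPM against 15.4, 14.8 and 14.1 CPM. Both of these had separate groups, with log2 differences of -0.85 ± 0.20 SE and -0.74 ± 0.18 SE.

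The other 7 were uncertain or of unknown function. Irx3os is antisense to Irx3 and shares exons with it, and was at 11.2, 7.75 and 9.03 CPM in saline and 3.56, 5.05 and 4.61 CPM in injury (log2 -1.07 ± 0.22 SE, edgeR adjusted p = 0.0192). Strand use in counting was not given, so reads from the pair cannot be told apart. Ly6g6d overlaps Ly6g6e, Mif4gd overlaps Mrps7 and Tmem94 overlaps Caskin2, with log2 differences of -1.22, -0.39 and -0.41. Mif4gd had an edgeR adjusted p of 0.0516 or more with any one saline or injury library left out. Gm12070 is a processed pseudogene (log2 -0.63) and 0610009L18Rik a noncoding RNA from a bidirectional promoter (log2 -0.52). Gm47283, a gene of the Y chromosome with near-identical copies, was at 3.27, 3.43 and 0.401 CPM in saline and 0.614, 0.32 and 0.146 CPM in injury, and it was the 1 gene of the 11 whose groups overlapped. The naive libraries were at 0.102 to 0.375 CPM for Gm47283, below every saline library.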

How the data were processed

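The 12 libraries (3 each of naive, saline, bupivacaine and bupivacaine with needling) were made from gastrocnemius RNA by Trizol extraction and a NEBNext Ultra kit, per the labels' protocols. The authors deposited whole-number counts per gene and, in a second table, FPKM values per gene. Reads were aligned with HISAT2 2.0.5 to mm10, per the submitters' processing notes. Which tool and annotation the counting used, and whether it used strand, is not given in the sources used here, so overlapping genes and near-identical copies are named as uncertain. Symbols came from GENCODE M21 for 54495 of 54532 gene IDs.

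Counts were fitted with edgeR 4.0.16 in R 4.3.3: TMM scaling, the filter on low counts by group (15715 genes kept), robust quasi-likelihood fit with 1 mean for each of the 4 groups of 3, two-sided test of injury minus saline, Benjamini-Hochberg adjustment over all genes tested, threshold 0.05. Of the quasi-likelihood estimates edgeR offers, the bias-adjusted one was taken after counts of calls under several settings had been seen, because it follows the way these data had been processed before. The older estimate called 633 genes. The fit was also run on counts simulated from its own means and spreads, and the outcome is not given here. No outlying library was simulated, so that run could not test the effect of one. Alternatives used DESeq2 1.42.0 and limma 3.58.1. Group values are means ± SD of 3 libraries, and fold changes are those of the fit. FPKM, which the authors scaled to transcript length, served to compare levels of different genes and for an alternative test. Replicates of a group differed by more than counting noise. Promoter sequences came from RefSeq (GRCm38.p6).

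The gene lists, the comparison and the naming rule were chosen with earlier results of these data known, and 3 lists (actin assembly, serine and one-carbon, cyclins and E2F) after values had been seen. Lists received counts and medians and no test. Named genes were the 12 protein-coding genes that rose with the smallest p at 5 CPM or more in injury, the 12 with the largest gain in mean CPM, all that fell, up to 4 called members of a list by p (2 by level where none was called), and all members of the myogenic, developmental sarcomere and receptor lists. Any other gene named was picked after its values were seen. The other settings tried were the scaling, the filter, the tool, a fit of the 6 libraries alone, a replicate block, a 2-fold minimum, FPKM pseudocounts of 0.1 and 1, and leaving out each saline and injury library and naive 1. Some items are not reported here.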

Additional observations from a re-analysis of the deposited data

How the results depend on the processing

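The 669 genes called kept the sign of their difference in every setting that fitted them. They were called on the same libraries that the settings refitted, so the kept sign is largely set by that choice and adds no support. Without injury 1, 0 of the 669 stayed called, although some, such as Ccnb1 and Coro1c, had an edgeR adjusted p of at most 0.0527. The count was 1036 with DESeq2 (1006 higher, 30 lower), 1107 with limma-voom and quality weights (1048 and 59), and 0 with edgeR when a 2-fold minimum was tested (590 at an unadjusted p under 0.05). With 1 saline or injury library left out it ran from 0 to 1098, and without naive 1 it was 908. In each of these fits the group with 2 libraries is assumed to vary like the others. It lay between 450 and 775 with the 6 libraries alone, median-ratio scaling, limma on log2(FPKM + 0.1) or log2(FPKM + 1), no filter, a stricter filter, or 5 further choices of the quasi-likelihood estimate that were added after seeing the data. The cause of these shifts was not tested.

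Replicate numbers showed no clear pairing: deviations of saline and injury libraries with the same number correlated at -0.128, 0.0707 and -0.0756. Those with different numbers correlated at -0.119 to 0.154. With 3 libraries a group these values cannot exclude shared animals or batches. With a replicate block the count was 539 in 12 libraries and 0 in the 6 alone (2464 at an unadjusted p under 0.05).

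Of 113 named genes called, 112 stayed called with DESeq2, 107 with limma-voom, 99 and 85 with the FPKM fits, 90 with the replicate block in 12 libraries and 86 without a filter. With the 6 libraries alone 78 of 112 did, and 0 with the replicate block there or with a 2-fold minimum. Without injury 1, 2 and 3 in turn 0, 24 and 107 did, without saline 1, 2 and 3 it was 36, 42 and 72, and without naive 1 it was 111. None changed sign. Among the named genes not called, 11 turned sign in at least 1 setting. Over the left-out libraries their log2 differences ran, for Aurka -0.07 to 0.23, C3 -0.23 to 0.1, Dysf -0.2 to 0.07, Hspg2 -0.12 to 0.02, Lrp4 -0.02 to 0.1, Musk -0.17 to 0.15, Myf6 -0.17 to 0.16, Myh7 -0.5 to 0.79, Timd4 -0.2 to 0.16, Tnnt1 -0.13 to 1.05 and Tuba4a 0 to 0.06. Musk was 0.0 with DESeq2 and without a filter, 0.01 with limma-voom and 0.02 with the stricter filter. Myf6 was -0.01 in both FPKM fits, -0.06 with limma-voom and -0.02 with the replicate block in 6 libraries. Genes under 1 CPM rest on few reads in the saline libraries.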
